A study of Homo sapiens with 6 samples.

Results

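The genes described here encode the core of the RAS, RAF, MEK and ERK kinase cascade. They are 7 of the 24432 gene symbols listed for each library and were taken by symbol: the GTPases NRAS and HRAS, the RAF kinases ARAF and BRAF, the MEK kinases MAP2K1 and MAP2K2, and the ERK kinase MAPK3. All 7 were found and all 7 passed the filter on low values, with at least 1 FPKM in every library. Other genes of this core were not analysed here, and genes around the cascade are described further below as lists. The study sequenced RNA from the human hepatocellular carcinoma line PLC/PRF/5 in 6 libraries. Resistant cells (3 libraries) are labelled with a lenvatinib-resistant genotype and lenvatinib treatment, and sensitive cells (3 libraries) are labelled wild type and treated as control. Per the labels, resistant cells were raised in lenvatinib from 20 µmol/L upward in steps of 0.5 mmol/L until they grew rapidly at 40 mmol/L. The unit given for the start differs from that of the steps, and the doses are printed as labelled. Medium on the resistant cells was changed every 48 h, all cells were grown with 10% serum, and each library was made from 1.5 µg of total RNA. Every resistant library carries both the drug label and the resistance label, so exposure and resistance cannot be told apart.

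In this cascade a receptor loads a RAS GTPase with GTP, RAS recruits RAF kinases to the membrane, RAF phosphorylates MEK, and MEK phosphorylates ERK, which acts on cytosolic kinases and transcription factors. Lenvatinib inhibits VEGF and FGF receptors, which signal through this cascade. NRAS and HRAS differ mainly in their C-terminal tails and lipid anchors. Of the RAF kinases, BRAF has the highest basal kinase activity and ARAF the lowest. MAP2K1 and MAP2K2 encode MEK1 and MEK2, and MAPK3 encodes ERK1. Activity in the cascade is set by phosphorylation and GTP loading, which transcript levels do not measure.

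Levels are in FPKM, fragments counted per kilobase of transcript and scaled to the depth of the library. Summed FPKM ranged from 366048 to 377923 in resistant and from 410492 to 475088 in sensitive libraries. Relative depth was estimated from the commonest ratio of low values to those of a reference library, among ratios near equality only. The estimates for the 6 libraries lay within 3.46% of each other, but a large difference could not have shown. The labelled cell type was checked with 8 hepatocyte markers. Their summed level was 11.7 to 29.2 FPKM in resistant and 3220 to 3300 FPKM in sensitive libraries. Most of the sensitive sum was SERPINA1, which averaged 2250 FPKM in sensitive and 13.2 FPKM in resistant libraries. TTR was listed at 0 in every resistant library and ALB in all but resistant replicate 2. Both were also low in sensitive libraries, at means of 0.545 and 3.21 FPKM. The resistant libraries thus lacked most of the hepatocyte transcripts of the line, and whether they came from the same line was not tested. Fibroblast markers summed to at most 0.236 FPKM in resistant and 1.49 FPKM in sensitive libraries, endothelial markers to at most 0.348 and 0.185 FPKM, and leukocyte markers to 2.28 to 3.80 FPKM in resistant and 11.8 to 18.7 FPKM in sensitive libraries. Most of that last sum was CD68, a lysosomal protein gene not confined to leukocytes, and PTPRC was listed at 0 throughout. The 8 mitochondrial mRNAs examined took 6.0% to 6.57% of summed FPKM in resistant and 13.6% to 14.5% in sensitive libraries. Sensitive replicate 3 stood apart, with a Pearson's r across genes of 0.9515 and 0.9643 to the other sensitive libraries, which correlated at 0.9947 with each other, so fold changes and log2 ratios of the 7 genes and the counts of calls are also given without it. Nothing in the labels says that replicates were separate cultures, so p-values measure the spread between these libraries, which may be technical.

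The comparison of resistant with sensitive cells describes how the RNA of the cascade differs between the labelled groups, whatever the source of the difference. HRAS and BRAF transcripts were higher in resistant cells, MAPK3, MAP2K1, MAP2K2 and ARAF transcripts were lower, and NRAS did not pass the test. In limma with Benjamini-Hochberg adjustment over 11694 tested genes, 6 of the 7 members passed an adjusted p of 0.05, 2 higher and 4 lower. Over all tested genes 67.7% passed, 35.2% higher and 32.5% lower, so passing the test is no mark of these members. Without sensitive replicate 3 all 7 passed, 2 higher and 5 lower, beside 80.7% of all genes. Values did not overlap between groups for 6 of the 7 members, against 74.4% of all tested genes. In bulk RNA, fewer cells of a kind and less RNA per cell cannot be told apart. All fold changes compare log2(FPKM + 1), for which the median of all tested genes was 0.076, and adding 1 understates the change of genes at low values such as BRAF.

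The sequences just upstream of a listed transcription start are shown for the 5 members that passed the test in all alternative analyses that tested them. The genes that were higher and those that were lower can thus be set side by side. Whether the main transcript of each gene, BRAF included, begins at the listed start was not tested. Each is the 120 bases before the 5′-most start in the RefSeq promoter table (GRCh38.p14), written 5′ to 3′ on the gene's strand, with GC boxes (GGGCGG or its reverse complement CCGCCC) in capitals. HRAS lies at chr11:535577-535696 on the minus strand, BRAF at chr7:140924269-140924388 on the minus strand, MAP2K1 at chr15:66386792-66386911 on the plus strand, MAP2K2 at chr19:4124123-4124242 on the minus strand and MAPK3 at chr16:30123221-30123340 on the minus strand.
HRAS: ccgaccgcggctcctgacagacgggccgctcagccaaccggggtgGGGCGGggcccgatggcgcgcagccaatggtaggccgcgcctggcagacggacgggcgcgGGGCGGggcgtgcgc
BRAF: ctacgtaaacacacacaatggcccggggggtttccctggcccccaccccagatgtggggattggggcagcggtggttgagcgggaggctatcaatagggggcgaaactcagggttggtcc
MAP2K1: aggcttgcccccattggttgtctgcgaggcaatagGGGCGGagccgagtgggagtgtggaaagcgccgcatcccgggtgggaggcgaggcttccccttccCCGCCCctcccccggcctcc
MAP2K2: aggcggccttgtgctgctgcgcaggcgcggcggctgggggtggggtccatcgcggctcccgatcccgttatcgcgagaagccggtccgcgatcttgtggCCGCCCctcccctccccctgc
MAPK3: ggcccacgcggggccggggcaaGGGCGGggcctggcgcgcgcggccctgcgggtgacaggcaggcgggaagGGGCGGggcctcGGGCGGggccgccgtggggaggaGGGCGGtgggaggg

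MAPK3 held 4 GC boxes in this window, HRAS and MAP2K1 held 2 each, MAP2K2 held 1 and BRAF none. These counts hold for the listed starts only, and windows at other starts of the genes, BRAF included, were not examined. A GC box was present in 5 of the 7 members' windows (NRAS also held 2 and ARAF none) and in 33.9% of 27305 windows of the same length, 1 per gene. The motif was thus found both in a gene that was higher and in genes that were lower in resistant cells. The CCAAT box, searched on both strands as CCAAT, was in 4 members' windows (HRAS, BRAF, MAP2K1 and ARAF) and in 21.2% of all windows. The E-box CACGTG was in the NRAS window and in 3.90% of all windows. The ETS site CCGGAAG was in none of the 7 and in 6.44% of all windows. The windows behind these shares were not limited to the genes tested here, so the shares are not a matched comparison. The letters describe the sequence and were not tested for binding.

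Of the RAS genes, HRAS rose and NRAS did not pass the test. HRAS was at 93.6, 81.7 and 87.1 FPKM in resistant replicates 1, 2 and 3, against 43.8, 46.5 and 50.5 FPKM in the sensitive ones. Every resistant library lay above every sensitive library. HRAS averaged 87.5 ± 5.95 FPKM in resistant and 46.9 ± 3.37 FPKM in sensitive cells (mean ± SD over 3 libraries a group, as for all means). The log2 fold change was 0.88 (SE 0.104, 95% interval 0.64 to 1.13, adjusted p = 0.000277 in limma). This was the member with the narrowest interval, and its sensitive libraries varied least, with a coefficient of variation of 7.17%.

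NRAS was at 30.1, 30.4 and 32.7 FPKM in the resistant libraries, against 51.1, 47.1 and 29.8 FPKM in sensitive replicates 1, 2 and 3. Sensitive replicate 3 lay below the resistant libraries and the other sensitive libraries above them, so the groups overlapped. NRAS averaged 31.1 ± 1.40 FPKM in resistant and 42.7 ± 11.3 FPKM in sensitive cells (log2 fold change -0.41, SE 0.203, 95% interval -0.89 to 0.07, adjusted p = 0.112 in limma). Without sensitive replicate 3, NRAS passed the test with a log2 fold change of -0.64 (adjusted p = 7.03e-05 in limma), and it also passed with all libraries under median-ratio scaling (-0.48, adjusted p = 0.0357).

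**Figure D1:**
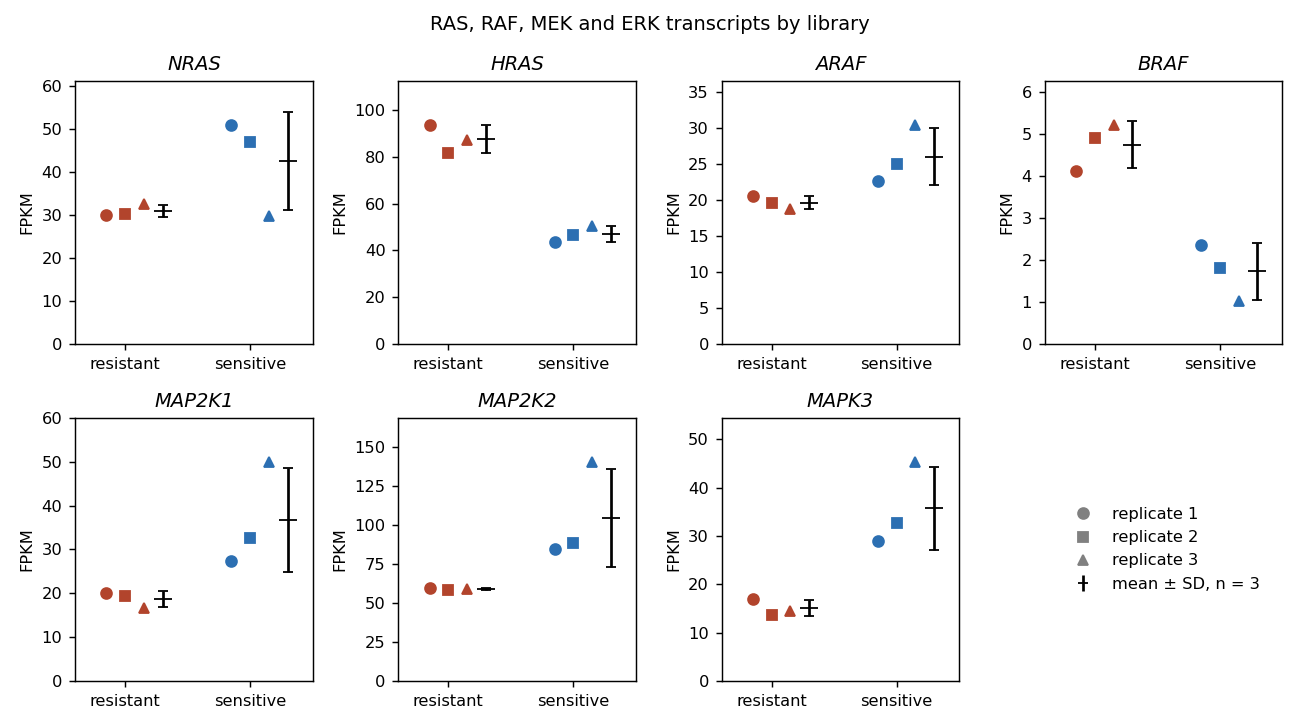
Level of each of the 7 genes in FPKM (vertical axes from 0) in the 3 resistant and 3 sensitive libraries, with symbols for replicate numbers and the mean ± SD beside each group. HRAS and BRAF were higher in every resistant library, MAP2K1, MAP2K2, MAPK3 and ARAF were lower in every resistant library, and NRAS overlapped through sensitive replicate 3 at 29.8 FPKM.

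The RAF genes moved in opposite directions. BRAF, the RAF kinase most often mutated in cancer, was at 4.14, 4.91 and 5.23 FPKM in resistant libraries, against 2.36, 1.81 and 1.03 FPKM in sensitive ones. Its highest sensitive level lay under its lowest resistant level. BRAF averaged 4.76 ± 0.560 FPKM in resistant and 1.73 ± 0.672 FPKM in sensitive cells, 2.74 times as much in resistant cells on the FPKM scale (log2 fold change 1.10, SE 0.202, 95% interval 0.62 to 1.58, adjusted p = 0.00251 in limma). With a pseudocount of 0.1 in place of 1 its log2 fold change was 1.47.

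ARAF was at 20.6, 19.5 and 18.8 FPKM in resistant libraries, against 22.7, 25.0 and 30.4 FPKM in sensitive ones. The groups did not overlap, but the gap between the highest resistant and the lowest sensitive library was small. ARAF averaged 19.6 ± 0.945 FPKM in resistant and 26.0 ± 3.99 FPKM in sensitive cells (log2 fold change -0.38, SE 0.132, 95% interval -0.70 to -0.06, adjusted p = 0.0380 in limma). The ARAF call was kept in 8 of 16 alternatives. Among the alternatives that ended it were those without sensitive replicate 2 (adjusted p = 0.0781 in limma) and without resistant replicate 1, 2 or 3 (adjusted p = 0.0762, 0.108 and 0.116), under median-ratio scaling (0.0596) and under scaling of each library to the same sum (0.221, or 0.0527 with mitochondrial mRNAs left out of the sum). The fold change stayed negative in all 16, between -0.47 and -0.15.

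BRAF shares sequence with a gene on the opposite strand. In GENCODE 29, 1239 of its 23432 exonic bases also lie in exons of NDUFB2, a respiratory chain subunit, and the strand setting of the counting is not given in the sources used here. NDUFB2 was at 147, 133 and 147 FPKM in resistant and 87.8, 90.7 and 119 FPKM in sensitive libraries. Both NDUFB2 and BRAF were thus higher in every resistant library than in every sensitive library. Within the sensitive libraries, replicate 3 had the highest NDUFB2 and the lowest BRAF. The part of shared reads in the BRAF values was not tested, so the BRAF level is uncertain to that extent. MAP2K1 shares 216 of 3759 exonic bases with SNAPC5 (6.41, 5.77 and 7.30 FPKM in resistant, 18.0, 15.9 and 15.6 FPKM in sensitive libraries), and ARAF shares 23 of 3535 with SYN1, which was at 1.08 FPKM or less. Processed or unprocessed pseudogenes are annotated for ARAF, BRAF and MAP2K1, and how reads were divided among near-identical copies is not given.

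Both MEK genes were lower in resistant cells. MAP2K2 was at 59.8, 58.1 and 58.9 FPKM in resistant libraries, against 84.7, 88.6 and 141 FPKM in sensitive ones. All sensitive libraries lay above all resistant libraries, and sensitive replicate 3 was far above the others. MAP2K2 averaged 58.9 ± 0.814 FPKM in resistant and 105 ± 31.3 FPKM in sensitive cells (log2 fold change -0.78, SE 0.197, 95% interval -1.25 to -0.31, adjusted p = 0.0108 in limma). Without sensitive replicate 3 the log2 fold change was -0.55 (adjusted p = 6.77e-05).

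MAP2K1 was at 20.0, 19.4 and 16.6 FPKM in resistant libraries, against 27.5, 32.5 and 50.02 FPKM in sensitive ones. The groups did not overlap, with sensitive replicate 3 again the highest. MAP2K1 averaged 18.7 ± 1.80 FPKM in resistant and 36.7 ± 11.8 FPKM in sensitive cells (log2 fold change -0.90, SE 0.221, 95% interval -1.42 to -0.37, adjusted p = 0.00964 in limma). Leaving out sensitive replicate 3 gave -0.66 (adjusted p = 0.000571).

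MAPK3, the ERK1 kinase at the end of the cascade, had the largest fall among the 7. It was at 17.0, 13.7 and 14.5 FPKM in resistant libraries, against 28.9, 32.8 and 45.4 FPKM in sensitive ones. The lowest sensitive library lay well above the highest resistant one. MAPK3 averaged 15.1 ± 1.70 FPKM in resistant and 35.7 ± 8.62 FPKM in sensitive cells (log2 fold change -1.17, SE 0.183, 95% interval -1.61 to -0.73, adjusted p = 0.00116 in limma). It was -0.99 when sensitive replicate 3 was left out (adjusted p = 4.20e-05).

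**Figure D2:**
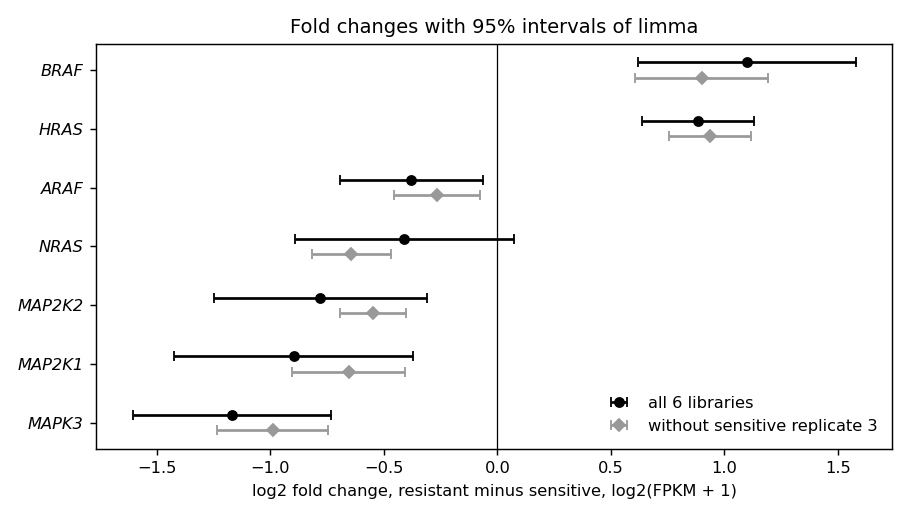
Log2 fold change of each gene, resistant minus sensitive on the log2(FPKM + 1) scale, with limma's 95% interval, for all 6 libraries (black circles) and without sensitive replicate 3 (grey diamonds). Directions were the same in both, the interval of NRAS spans 0 in the first, and the fold changes of BRAF, MAP2K1, MAP2K2, MAPK3 and ARAF were nearer 0 without that library.

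Levels per length ranked differently in the groups. In resistant cells the order of mean FPKM was HRAS, MAP2K2, NRAS, ARAF, MAP2K1, MAPK3 and BRAF. Neighbours in that order did not overlap across libraries except ARAF with MAP2K1 and MAP2K1 with MAPK3. In sensitive cells the order was MAP2K2, HRAS, NRAS, MAP2K1, MAPK3, ARAF and BRAF, where MAP2K2 stood above HRAS and BRAF below ARAF without overlap and the neighbours between HRAS and ARAF overlapped. HRAS thus stood first in resistant and after MAP2K2 in sensitive cells. BRAF was last in each group. Across libraries its mean level lay at the 26.4th percentile of tested genes, while the other members lay between the 76.4th percentile (ARAF) and the 93.4th (MAP2K2).

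Summed over the paralogs described here, RNA of the RAS tier was higher and that of the MEK tier lower in resistant cells. NRAS and HRAS together made 124, 112 and 120 FPKM in resistant and 94.8, 93.7 and 80.3 FPKM in sensitive libraries. MAP2K1 and MAP2K2 together made 79.7, 77.6 and 75.5 FPKM in resistant and 112, 121 and 191 FPKM in sensitive libraries. Neither of these sums overlapped between groups, and sensitive replicate 3 had the lowest RAS and the highest MEK sum. The RAF sum, most of it ARAF in every library, was 24.8, 24.4 and 24.0 FPKM in resistant and 25.0, 26.8 and 31.5 FPKM in sensitive libraries. It did not overlap either, but resistant replicate 1 and sensitive replicate 1 lay close together. With sensitive replicate 3 set aside, each sum still differed in the same direction in every library. These sums cover the 7 genes alone and were not tested.

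Ratios between paralogs within a library do not change when a library is scaled by a single factor. Quantile normalization does change them, and gave differences in log2 ratio of -1.38 for NRAS over HRAS, -1.71 for ARAF over BRAF and -0.21 for MAP2K1 over MAP2K2. The 3 pairs compared were formed from these genes, NRAS over HRAS, ARAF over BRAF and MAP2K1 over MAP2K2, each by a two-sided exact permutation test on the log2 ratio. With 3 against 3 libraries the smallest p that the exact permutation test can give is 0.10, so no pair can pass 0.05.

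The RAS ratio turned toward HRAS. The NRAS over HRAS ratio was 0.322, 0.372 and 0.375 in resistant libraries, against 1.17, 1.01 and 0.590 in sensitive ones, with no overlap. HRAS exceeded NRAS in all resistant libraries, whereas in sensitive replicates 1 and 2 NRAS was the higher. The mean log2 ratio was -1.49 ± 0.124 in resistant and -0.17 ± 0.518 in sensitive cells, a difference of -1.32 (exact permutation p = 0.10, the smallest possible, and 0.15 adjusted over the 3 pairs). Without sensitive replicate 3 the difference was -1.61.

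The RAF ratio turned toward BRAF. ARAF exceeded BRAF 4.99, 3.98 and 3.59 times in resistant libraries, against 9.59, 13.8 and 29.7 times in sensitive ones, with no overlap. The mean log2 ratio was 2.05 ± 0.243 in resistant and 3.98 ± 0.832 in sensitive cells, a difference of -1.93 (exact permutation p = 0.10, the smallest possible, and 0.15 adjusted). Without sensitive replicate 3, where the ratio was 29.7, the difference was -1.47, which is smaller in size than that of the RAS pair without the same library. ARAF remained the more abundant RAF transcript of the pair in every library.

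The MEK ratio differed little. MAP2K1 over MAP2K2 was 0.334, 0.334 and 0.282 in resistant libraries, against 0.324, 0.367 and 0.355 in sensitive ones, and the groups overlapped. The mean log2 ratio was -1.66 ± 0.141 in resistant and -1.52 ± 0.0926 in sensitive cells, a difference of -0.14 (exact permutation p = 0.30, adjusted 0.30). Both MEK transcripts were lower in resistant cells while their ratio overlapped between groups. Whether the pairs differ from each other in how far their ratio moved was not tested.

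**Figure D3:**
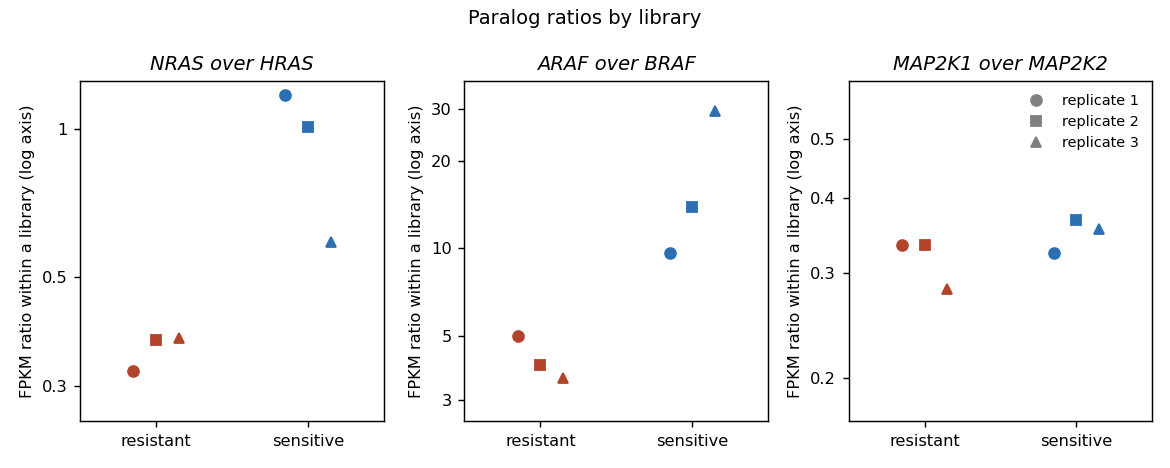
FPKM ratio of each paralog pair within a library on a log axis, for the 3 resistant and 3 sensitive libraries, with symbols for replicate numbers. NRAS over HRAS and ARAF over BRAF lie lower in every resistant library, and MAP2K1 over MAP2K2 lies between 0.282 and 0.367 in all 6 libraries.

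Sensitive replicate 3 pulled members in opposite directions. Against the mean of sensitive replicates 1 and 2 on the FPKM scale, it held 1.67 times as much MAP2K1, 1.62 times as much MAP2K2, 1.47 times as much MAPK3, 1.28 times as much ARAF and 1.12 times as much HRAS. It held 0.607 times as much NRAS and 0.491 times as much BRAF. The longest coding transcripts of NRAS and BRAF in GENCODE 29 are long and poor in G and C (4449 bases with 38.4% GC and 9578 bases with 40.0% GC). Those of the other members have 50.4% (MAP2K1), 58.9% (ARAF), 61.4% (MAPK3), 65.5% (MAP2K2) and 65.8% GC (HRAS), against a median of 48.9% over the 10746 tested genes with such a transcript. Across these genes, which are not independent replicates, GC content and the deviation of sensitive replicate 3 had a Spearman's rho of 0.472, and GC content and the fold change between groups one of -0.116. The part of base composition in the spread of the sensitive group was not tested.

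**Figure D4:**
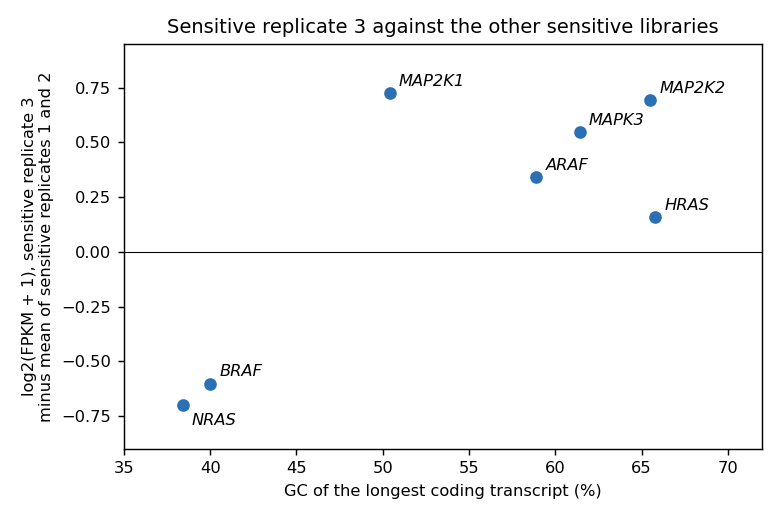
Level in sensitive replicate 3 minus the mean of sensitive replicates 1 and 2 on the log2(FPKM + 1) scale, against the GC content (%) of the longest coding transcript, 1 point per gene. NRAS and BRAF, at 38.4% and 40.0% GC, lie below 0 and the other 5 genes, at 50.4% GC or more, lie above it.

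Genes whose levels followed a member most closely across the 6 libraries were found by Pearson's r on log2(FPKM + 1) among genes of at least 5 FPKM on average. With 2 groups of 3 libraries, these values largely reflect the difference between groups and the place of sensitive replicate 3, and they are given as a description. KLF3, a zinc finger transcription factor gene, followed NRAS at r = 0.9969. BRAF was most like MKLN1 (r = 0.9995), which lies on the same chromosome 52 coding genes away, and CYRIB (0.9990). HRAS was most like SPAG7 (0.9989) and SRI (0.9987), and ARAF was most like IFT20 (0.9982) and PSENEN (0.9979). MAP2K1 was most like BABAM1 (0.9992) and IFT20 (0.9985), MAP2K2 like METTL2A and RHBDD2 (0.9996 each), and MAPK3 like NELFA (0.9992) and ELOB (0.9986).

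The genes around the cascade were grouped in 9 lists of 107 genes, of which 106 were in the files and 87 were tested. Their counts are set beside 35.2% of all tested genes called higher and 32.5% called lower in resistant cells, and their medians beside 0.076, with no test of a list. A tested gene under 1 FPKM in every library of a group met the filter in the other group, so its direction followed from the filter. Without sensitive replicate 3 the counts of 4 lists were the same (GTPase-activating proteins, scaffolds, ERK-activated kinases and ERK transcriptional output). The other 5 gained calls, all lower: RAF regulators then had 9 higher and 4 lower, and exchange factors and adaptors 2 and 3. Lipid modification and transport had 1 higher and 6 lower, other GTPases 9 and 2, and kinases of other MAPK cascades 6 and 6. All 27 list genes named by rule kept their direction in each alternative, and all but LAMTOR3 passed the test in every alternative that tested them.

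Upstream of RAS, exchange factors load GTP and adaptors connect receptors to them. Of 7 tested, 2 rose, 2 fell and 3 did not pass, with a median log2 fold change of -0.09. The adaptor SHC1 was at 268 ± 15.4 FPKM in resistant and 16.0 ± 2.58 FPKM in sensitive cells (log2 fold change 3.99). The exchange factor SOS2 was at 10.6 ± 1.15 and 2.50 ± 1.11 FPKM in resistant and sensitive cells (1.77), and the docking protein GAB2 at 2.06 ± 0.0822 and 3.89 ± 0.779 FPKM (-0.66).

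GTPase-activating proteins, which return RAS to its GDP state, were called higher where they passed. Of 7 tested, 5 rose, none fell and 2 did not pass (median 1.14). With no filter on low values, 4 of 9 rose and 1 fell. RASA3 was at 18.8 ± 2.16 FPKM in resistant and 0.555 ± 0.0659 FPKM in sensitive cells (log2 fold change 3.66) and met the filter in resistant libraries only. DAB2IP was at 4.84 ± 0.379 FPKM in resistant and 0.891 ± 0.368 FPKM in sensitive cells (1.64), and RASAL2 at 6.77 ± 0.459 and 1.59 ± 0.610 FPKM (1.61). The count fell to 3 of 7 without resistant replicate 2 and without resistant replicate 3.

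The next list holds enzymes that attach, trim or remove the lipid anchors of RAS, with the palmitoyltransferase partner GOLGA7 and the RAS carrier PDE6D. Of 10 tested, 1 rose, 5 fell and 4 did not pass (median -0.32), so the share called was near that of all genes. ICMT, which methylates the farnesylated C terminus, was at 20.8 ± 0.723 FPKM in resistant and 58.4 ± 5.44 FPKM in sensitive cells (log2 fold change -1.45). The depalmitoylases ABHD17C and ABHD17A, the first at 1.97 ± 0.473 FPKM in resistant and 8.51 ± 0.508 FPKM in sensitive cells, fell by 1.69 and 0.75 on the log2 scale.

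Other GTPases of the RAS subfamily were mostly higher, and of 12 tested 9 rose, 1 fell and 2 did not pass (median 0.97). RAP2B was at 19.5 ± 2.92 FPKM in resistant and 2.52 ± 0.165 FPKM in sensitive cells (log2 fold change 2.53), and RRAS2, a close relative of the classical RAS proteins, at 34.5 ± 2.16 and 9.09 ± 0.462 FPKM (1.82). RASD1, a dexamethasone-induced RAS-like protein, was at 0.441 ± 0.288 FPKM in resistant and 50.7 ± 6.79 FPKM in sensitive cells (-5.17) and met the filter in sensitive libraries only.

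Of 16 regulators of RAF, 9 rose, 2 fell and 5 did not pass (median 0.49). PEBP1, the RAF kinase inhibitor protein that binds RAF and blocks phosphorylation of MEK, was at 63.6 ± 1.30 FPKM in resistant and 265 ± 34.2 FPKM in sensitive cells (log2 fold change -2.04). The 14-3-3 proteins, which bind phosphorylated RAF, included YWHAZ at 233 ± 7.25 FPKM in resistant and 63.2 ± 22.0 FPKM in sensitive cells (1.93) and YWHAE at 818 ± 41.0 and 308 ± 35.7 FPKM (1.41). Scaffolds that gather RAF, MEK and ERK split, and of 7 tested 2 rose, 1 fell and 4 did not pass (median 0.09). IQGAP1 was at 85.1 ± 6.37 FPKM in resistant and 22.9 ± 9.16 FPKM in sensitive cells (1.93). Of the late endosomal LAMTOR complex, LAMTOR5 was at 69.8 ± 4.20 FPKM in resistant and 173 ± 4.67 FPKM in sensitive cells (-1.30). LAMTOR3, which binds MEK1, was at 6.30 ± 0.410 FPKM in resistant and 4.39 ± 0.337 FPKM in sensitive cells (0.44), a call that was lost, among others, under quantile normalization and when resistant replicate 2, resistant replicate 3 or sensitive replicate 2 was left out.

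Of 6 tested kinases that ERK activates, 4 rose, 1 fell and 1 did not pass (median 0.58). RPS6KA3, the ribosomal S6 kinase RSK2, was at 4.13 ± 0.422 FPKM in resistant and 19.5 ± 8.72 FPKM in sensitive cells (log2 fold change -1.91). MKNK2, which phosphorylates the translation factor eIF4E, was at 80.7 ± 3.07 FPKM in resistant and 38.6 ± 14.9 FPKM in sensitive cells (1.11). RPS6KA4, a kinase of histone H3 and CREB, was at 31.4 ± 2.01 FPKM in resistant and 14.4 ± 3.66 FPKM in sensitive cells (1.10).

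The list of kinases of the other MAPK cascades, which also holds the MEK activator MAP3K8, went both ways. Of 13 tested, 6 rose, 5 fell, MAP3K8 among them, and 2 did not pass (median 0.29). MAP3K8, which can activate MEK in place of RAF, was at 0.205 ± 0.0938 FPKM in resistant and 5.47 ± 0.784 FPKM in sensitive cells (log2 fold change -2.42) and met the filter in sensitive libraries only. MAP2K3, which activates p38 kinases, was at 143 ± 13.8 FPKM in resistant and 26.5 ± 7.55 FPKM in sensitive cells (2.41). MAPK13, a p38 kinase, was at 2.81 ± 0.198 FPKM in resistant and 0.226 ± 0.152 FPKM in sensitive cells (1.64) and met the filter in resistant libraries only.

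Transcripts used as a readout of ERK output were mostly higher in resistant cells, in which MAP2K1, MAP2K2 and MAPK3 transcripts were lower. Of 9 tested members of a 10-gene list, 8 rose and 1 fell (median 1.96), and EPHA4 was listed at 0 in all libraries. Among the 8, DUSP4, a phosphatase of ERK, met the filter in resistant libraries only (1.53 ± 0.289 FPKM in resistant and 0.674 ± 0.0782 FPKM in sensitive cells). EPHA2, a receptor kinase, was at 345 ± 21.3 FPKM in resistant and 14.6 ± 3.75 FPKM in sensitive cells (log2 fold change 4.49). PHLDA1 was at 105 ± 0.785 FPKM in resistant and 14.3 ± 3.93 FPKM in sensitive cells (2.82), and the ETS factor ETV5 at 40.8 ± 1.86 and 5.17 ± 0.594 FPKM (2.76). The exception, ETV4, named after its values were seen, was at 24.3 ± 1.98 FPKM in resistant and 60.2 ± 13.6 FPKM in sensitive cells (-1.26). Earlier results on these libraries already showed ERK-responsive transcripts higher, so this count is no independent support.

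**Figure D5:**
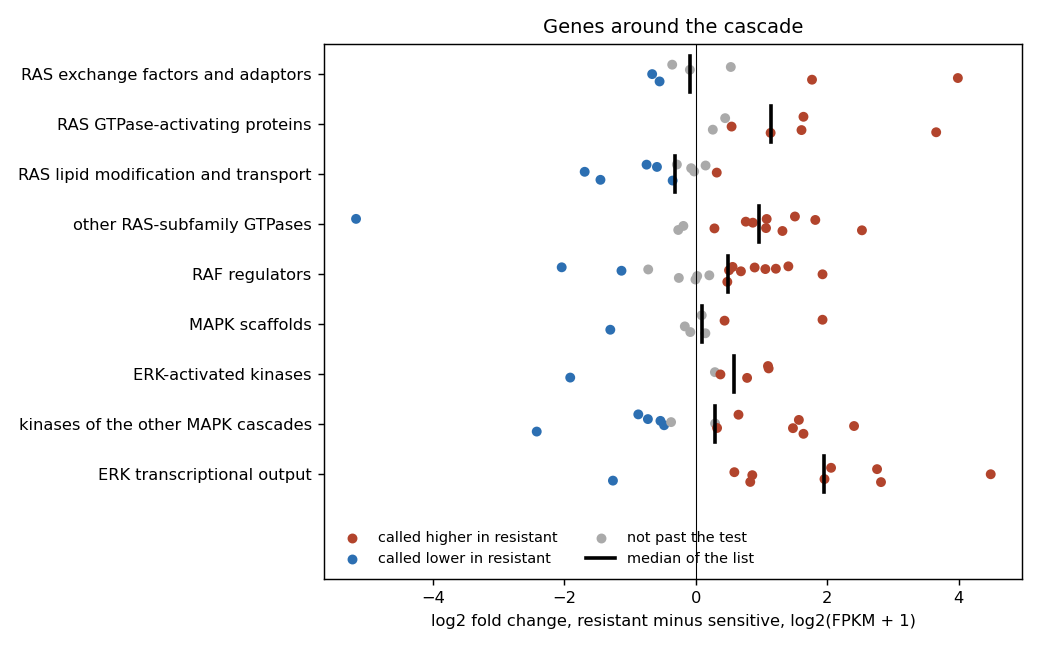
Log2 fold change (resistant minus sensitive, log2(FPKM + 1)) of each tested gene on the 9 lists around the cascade, coloured by its call in limma, with a black bar at the list's median. Medians run from -0.32 for lipid modification and transport to 1.96 for ERK transcriptional output.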

How the data were processed

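The authors deposited 1 table per library with 1 FPKM value per gene symbol, normalized by them to transcript length and library size. The unit was inferred from the values, which RPKM could match. The submitters' processing notes name cutadapt, a read trimmer, and HISAT2, an aligner. The counter, program versions, genome build, annotation and strandedness are each not given in the sources used here. Read counts were not analysed here, and no nonzero value was identical between libraries.

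Groups and replicate numbers came from the sample titles. Genes reaching 1 FPKM in 3 or more libraries were tested on log2(FPKM + 1), with a pseudocount of 1, by limma-trend (limma 3.58.1, R 4.3.3) with all 6 libraries and no block. Calls were made at a Benjamini-Hochberg adjusted p under 0.05, with 4 residual and 2.75 prior degrees of freedom, and the fit was tested on simulated data. Paralog ratios used exact permutation tests. Other steps used Python 3.11.15 with scipy 1.17.1, numpy 2.4.6, pandas 2.3.3 and matplotlib 3.10.9. Member genes and lists were chosen with earlier results of these data known. Named from each list were up to 3 called genes with the largest changes, and for likeness the 2 genes with the highest r per member, of which 1 is not reported here. Alternatives changed the pseudocount, filter, scaling, limma settings, replicate block and libraries.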

Additional observations from a re-analysis of the deposited data

How the results depend on the processing

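Every member kept its direction in all alternatives, and HRAS, BRAF, MAP2K1, MAP2K2 and MAPK3 passed the test in each alternative that tested them. ARAF did not pass under scaling to the same sum (log2 fold change -0.15), the same without mitochondrial mRNAs (-0.27, added after seeing the data), median-ratio scaling (-0.45) and the replicate block (-0.38), and NRAS passed as lower under median-ratio scaling (-0.48). The cause was not tested. Scaling to the same sum moved the median of all tested genes to 0.27, and relative to it the log2 fold changes were 0.85 for HRAS, 0.99 for BRAF, -0.45 for NRAS, -0.42 for ARAF, -0.94 for MAP2K1, -0.81 for MAP2K2 and -1.21 for MAPK3.

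With each library left out in turn, log2 fold changes ranged from -0.64 to -0.27 for NRAS, 0.83 to 0.94 for HRAS, -0.47 to -0.27 for ARAF, 0.90 to 1.27 for BRAF, -1.08 to -0.66 for MAP2K1, -0.91 to -0.55 for MAP2K2 and -1.31 to -0.99 for MAPK3. Between 5 and 7 members were called, and 6675 (without resistant replicate 2) to 9442 (without sensitive replicate 3) of all genes. The differences in log2 ratio ranged from -1.61 to -1.12 for NRAS over HRAS, -2.29 to -1.47 for ARAF over BRAF and -0.19 to -0.06 for MAP2K1 over MAP2K2. Called GTPase-activating proteins ranged from 3 to 5.

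A mean of at least 5 FPKM left 7396 genes to test, with 4973 called (67.2%), 2 GTPase-activating proteins and 7 kinases of the other MAPK cascades called, and BRAF not tested. With no filter, 7 of 12 exchange factors and adaptors were called. Same-numbered libraries had deviation correlations of -0.422, 0.072 and -0.228, and differently numbered ones lay between -0.155 and 0.346. These values showed no pairing by number, but they cannot tell whether same-numbered libraries were handled together. With the replicate block 7193 genes were called and 5 of the 7 members passed, ARAF (adjusted p = 0.0944 in limma) and NRAS not, and of the named list genes LAMTOR3 lost its call. Over all alternatives the log2 fold change of LAMTOR3 ranged from 0.33 to 0.64. Depth of single genes is unknown without read counts, and 3 libraries a group leave the ratio tests unable to pass 0.05.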
